A study of Homo sapiens with 19 samples.

Results

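The genes of the proteasome were examined in SH-SY5Y human neuroblastoma cells under arsenite stress and after depletion of the stress granule proteins G3BP1 and G3BP2. The members were all rows whose GENCODE gene name was PSMA, PSMB, PSMC, PSMD, PSME, PSMF or PSMG followed by a number. This rule gave 48 of 19924 genes in the tables of gene-level RNA-seq and of cross-linking (eCLIP) values, and 478 of 256980 transcripts in the table of rRNA-depleted RNA-seq. All 48 were protein-coding, and the rule used no measured value.

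The parental line was the same throughout and no library carried an engineered allele. For poly(A) RNA-seq, 1 library each came from cells given control siRNA (siCtrl), 1 siRNA against G3BP1 (siG3BP1) or 1 against G3BP2 (siG3BP2), and 1 library each from the cleared lysate of cells under sodium arsenite (Total) and from the stress granule (SG) cores that were pelleted from that lysate and captured with a G3BP1 antibody (SG). For rRNA-depleted RNA-seq, 1 library each came from untreated cells and from cells under arsenite (AS). The eCLIP libraries were made in duplicate for G3BP1 and for G3BP2, untreated and under AS, which gave 8 libraries, and the 4 size-matched input libraries were not analysed here. The labels of the rRNA-depleted AS sample gave 500 μM arsenite for 1 h, whereas the labels of the other samples, siRNA and untreated eCLIP ones included, gave 50 mM for 1 h. The methods of the study state 500 μM for 1 h and describe no arsenite for the siRNA cells. As each RNA-seq condition was 1 library, ratios between them had no replicate check and carry no p-value. Nothing said that the eCLIP duplicates came from separate cultures, so that their spread may be technical.

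The proteasome degrades proteins that carry ubiquitin chains. Its core particle is a stack of rings of alpha subunits (PSMA genes) and beta subunits (PSMB genes), of which PSMB5, PSMB6 and PSMB7 are catalytic and are replaced by PSMB8, PSMB9 and PSMB10 in the immunoproteasome. The regulatory particle, which binds, unfolds and threads in the substrate, has a base of ATPases (PSMC genes) and scaffold subunits (PSMD1 and PSMD2), a lid that removes ubiquitin, and the ubiquitin receptor PSMD4, and dedicated chaperones assemble the core (PSMG genes) and the base (PSMD5, PSMD9 and PSMD10). Stress granules are cytoplasmic condensates of untranslated mRNA and RNA-binding proteins that form when translation stops, as under arsenite, and G3BP1 and G3BP2 nucleate them.

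A few sequences show what kind of site the members carry. A palindromic motif, CCAGGCTGG or CCAGCCTGG, which the study drew from these eCLIP libraries and which is therefore no independent evidence, was searched on the sense strand of the canonical transcript of each gene (GENCODE, GRCh38). It was in 10 of 48 members (20.8%) and in 27.97% of 20046 protein-coding genes. No member of 1000 nt or less held it, against 3.67% of all transcripts of that length, and 4 of the 6 members over 4000 nt held it, against 47.4%. The windows below are the matches in coding sequence, with the motif in capitals: PSMB5, lower in SG than in Total, is read on the minus strand at chr14:23034734-23034762, and PSMD2, higher in SG before rescaling only, on the plus strand at chr3:184308715-184308743.
PSMB5: cctggccgcgCCAGGCTGGggtgtcccag
PSMD2: atgtggtgggCCAGGCTGGcaagccgaag

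Proteasome genes are also known targets of transcription factors that bind the antioxidant response element, among them NFE2L1. RefSeq promoter windows (GRCh38.p14, 250 bases before to 50 after the start site) were at hand for 42 members. Its core, TGACNNNGC, searched on both strands, was in the promoter of 15 of these 42, and in 29.4% of their 51 windows against 13.8% of 21613 windows of protein-coding genes. The CCAAT box was in 39.2% of the members' windows against 34.9%, and the ETS letters CCGGAAG in 29.4% against 12.9%. The windows shown belong to genes that stood out in 1 or more of the comparisons, with the core in capitals. PSMB3 is read on the plus strand at chr17:38752627-38752656, PSMC4 on the minus strand at chr19:39971182-39971211 and PSME4 on the plus strand at chr2:53971008-53971037.
PSMB3: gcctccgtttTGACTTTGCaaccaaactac
PSMC4: ctcctccatagTGACCAAGCcggcctctgt
PSME4: ggctctgctggTGACGCTGCagccgccggg

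In siCtrl cells 44 of the 48 genes were above 1 TPM, a level scaled to transcript length and to the library that can be compared between genes. The 14 constitutive core subunits ranged from 20.8 TPM for PSMA5 to 564 TPM for PSMB4, a 27.2-fold range among products that are used in equal numbers, with a median of 157 TPM. The 17 subunits of the regulatory particle ranged from 20.1 TPM for PSMD12 to 360 TPM for PSMD8, with a median of 100.5 TPM. Levels of the assembly factors were lower. The base chaperones PSMD5, PSMD9 and PSMD10 were between 12.2 and 18.3 TPM, and the core chaperones PSMG1, PSMG2, PSMG3 and PSMG4 were at 19.5, 42.6, 78.3 and 37.9 TPM.

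The immunoproteasome genes were not expressed together. PSMB8 did not exceed 0.063 TPM in the 5 libraries, against 118 to 274 TPM for PSMB5, whose place it takes. PSMB9 was listed at 0 in all 5, against 43.9 to 219.8 TPM for PSMB6. PSMB10 was at 38.3 TPM in siCtrl, 5.61-fold below PSMB7, and was thus the one induced subunit above 1 TPM. Its level was within the range of the constitutive core subunits but below that of each beta ring gene (47.2 to 564 TPM). PSMA8, a testis subunit, was listed at 0 in all 5 libraries, and PSMB11, a thymus subunit, was listed at 0 in 4 and at 0.91 TPM in SG.

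The defining markers of SH-SY5Y cells were present. Of 9 markers of the line 8 were above 1 TPM in every library, the exception being TH at 0 to 0.39 TPM. Of 7 markers of other cell types 1 or 2 were above 1 TPM, and the sum of the 7 was 10.2 to 20.4 TPM in 4 libraries but 71.2 TPM in SG, where CD68 was at 28.7 TPM and COL1A1 at 40.97 TPM, and PTPRC, PECAM1, ALB and GFAP were listed at 0 in the other 4 libraries, and the part of this in the SG values was not tested. The targeted genes were low in the libraries of their siRNA. G3BP1 was at 18.7 TPM in siCtrl, 5.996 in siG3BP1 and 16.5 in siG3BP2, and G3BP2 at 38.1, 39.4 and 11.4 TPM. In bulk libraries fewer cells with an RNA and less RNA per cell cannot be told apart.

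The first comparison asked which proteasome mRNAs were over- or under-represented in SG cores relative to the lysate they came from. A gene was called higher when (SG TPM + 1) was more than 2 times (Total TPM + 1) and SG was above 1 TPM, and lower when it was less than 0.5 times and Total was above 1 TPM. Of 44 members 26 were lower and 4 higher, whereas 9.45% of 13549 genes were lower and 62.9% higher. The median log2 ratio was -1.24 for the members and 1.51 for all genes, and 42 of 44 members lay below the latter value. With SG rescaled so that the median ratio of all genes was 1, 39 members were lower and 1 was higher. The shares of all genes after this rescaling were not counted, so that these counts cannot be set beside 9.45% and 62.9%.

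The subcomplexes differed in where their mRNAs lay. All 7 alpha ring genes were lower in SG, with a median log2 ratio of -2.04 and a range from -2.58 to -1.45. In the beta ring 6 of 7 were lower, with a median of -2.26. PSMB3, a structural beta subunit, had a level of 126.7 TPM in Total against 9.79 in SG, and its log2 ratio of -3.56 placed it at percentile 0.827 of all genes. It had no reads in the rRNA-depleted libraries and no eCLIP value above 0, as given below. How reads at its locus were aligned was not tested. PSMA6 of the alpha ring was at 252.7 and 41.5 TPM, a log2 ratio of -2.58. PSMA6, PSMA1 and PSMA2 each share their strand with an overlapping gene. With both genes summed the log2 ratios were -2.16, -1.56 and -2.04, still called lower. The remaining beta gene, PSMB2, was at 43.1 and 27.6 TPM, a log2 ratio of -0.63. The rings of the core particle thus held none of the genes called higher. Among the catalytic genes, PSMB5 was at 258 and 118 TPM, PSMB6 at 219.8 and 43.9 TPM, and PSMB7 at 294 and 60.5 TPM, so that all of them were lower, as was PSMB10 at 31.1 and 11.2 TPM.

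The regulatory particle was more mixed, with 7 of 17 genes lower, 2 higher and a median log2 ratio of -0.88. Of the 6 ATPases 3 were lower, PSMC1 at 40.0 TPM in Total and 12.1 in SG with the lowest ratio (log2 -1.64), while PSMC6 was at 32.5 and 33.7 TPM. In the lid 3 of 8 were lower, PSMD8 the most, at 377 and 52.5 TPM (log2 -2.82), and PSMD11 was higher, at 25.1 and 59.2 TPM (log2 1.21). PSMD12, also of the lid, was at 21.3 and 41.9 TPM, a log2 ratio of 0.95 just short of the threshold. The scaffold gene PSMD2, the member with the highest level in SG, was at 120.7 and 280.4 TPM (log2 1.21), and its partner PSMD1 at 51.4 and 64.4 TPM. The calls of PSMD2 and PSMD11 held for TPM as deposited, and their log2 ratios became -0.25 and -0.22 after the rescaling to the median of all genes. The ubiquitin receptor PSMD4 was lower, at 304 and 127 TPM.

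Assembly factors and activators lay at both ends. The base chaperone PSMD5 had 11.5 TPM in Total against 39.7 in SG (log2 1.71, percentile 54.4 of all genes), whereas PSMD9 and PSMD10 were at 17.9 and 14.1 TPM and at 16.5 and 15.0 TPM. The core chaperones PSMG1, PSMG3 and PSMG4 were lower, with log2 ratios of -1.36, -2.02 and -1.23, and PSMG2 was at 54.8 and 30.8 TPM. PSME4, which encodes the activator PA200, had 6.17 TPM in Total against 119 in SG. Its log2 ratio of 4.07 was the highest of the members and at percentile 92.0 of all genes, and it was the one member called higher under each of the 7 alternatives tried. Genes of the other activators differed from it and from each other: PSME1 and PSME2, which form a joint ring, were lower (74.6 and 15.3 TPM, and 80.2 and 19.05 TPM), and PSME3 was at 81.1 and 105 TPM. The inhibitor PSMF1 was at 24.9 and 20.4 TPM.

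**Figure D1:**
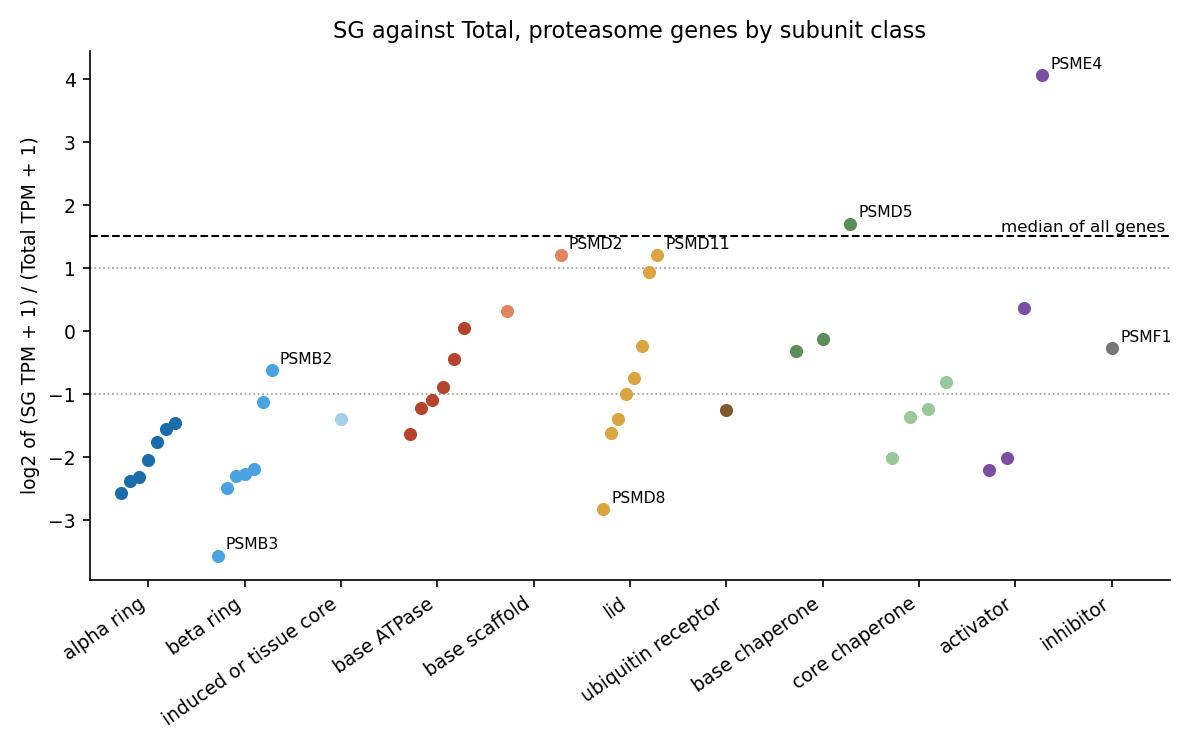
Log2 ratio of (SG TPM + 1) to (Total TPM + 1) for the 44 members above 1 TPM in either library, by subunit class, 1 point a gene from 1 library a condition. The dashed line is the median of all genes (1.51) and the dotted lines are the thresholds for a call. All alpha ring points lie below the lower threshold, and PSME4 lies at 4.07; PSMD2 and PSMD11, above the upper threshold here, fall below 0 when SG is rescaled to the median of all genes.

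These ratios moved with the length of the mRNA, here the canonical transcript. Across the 44 members the Spearman correlation of the log2 ratio with length was 0.65, and across 13537 genes it was 0.70. With the longest annotated transcript in its place it was 0.40 and 0.63, and the median length of the core subunits was then 1733 nt. These correlations are across genes of the same 2 libraries, which are not independent replicates. By canonical transcript the core subunits had a median length of 1003.5 nt, the regulatory subunits 1754 nt and all genes 3279 nt. The 4 members called higher had a median of 3615.5 nt and the 26 called lower a median of 1119.5 nt. The medians of the coding sequence were 2118 and 786 nt in these groups and those of the 3′ UTR 1684 and 213 nt.

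The members were also set beside all genes of the same length class. Of the 44, 39 had a ratio under the median of all genes of their length class. In the class up to 1000 nt, 11 members had a median log2 ratio of -2.21 against -1.15 for 1010 genes. In the class of 1501 to 2000 nt the values were -1.36 for 7 members and 0.14 for 1384 genes. The classes are wide, so that length is not held fixed within them, and level was not matched. Long members that were not high in SG included PSMF1, of 8154 nt, with a log2 ratio of -0.27, and PSMA4 (4378 nt), PSMC1 (4390 nt) and PSMA5 (3815 nt), which had ratios of -1.77, -1.64 and -1.56. The coding sequences of these 4 genes were between 723 and 1320 nt, so that most of the length was 3′ UTR (2974 to 7169 nt), whereas PSME4 had 5529 nt of coding sequence and 1512 nt of 3′ UTR. Other long members that were mostly 3′ UTR lay on both sides. PSMB2 (4426 nt, 3′ UTR 3729 nt) was at -0.63, but PSMD12 (4356 nt, 3′ UTR 2930 nt) was at 0.95. PSMD11 (3850 nt, 3′ UTR 2570 nt) was at 1.21 and PSMD5 (3381 nt, 3′ UTR 1856 nt) at 1.71. Whether the 3′ UTR has a part in the ratio was not tested. Length was annotated and not measured, and which transcript of a gene was expressed was not tested.

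**Figure D2:**
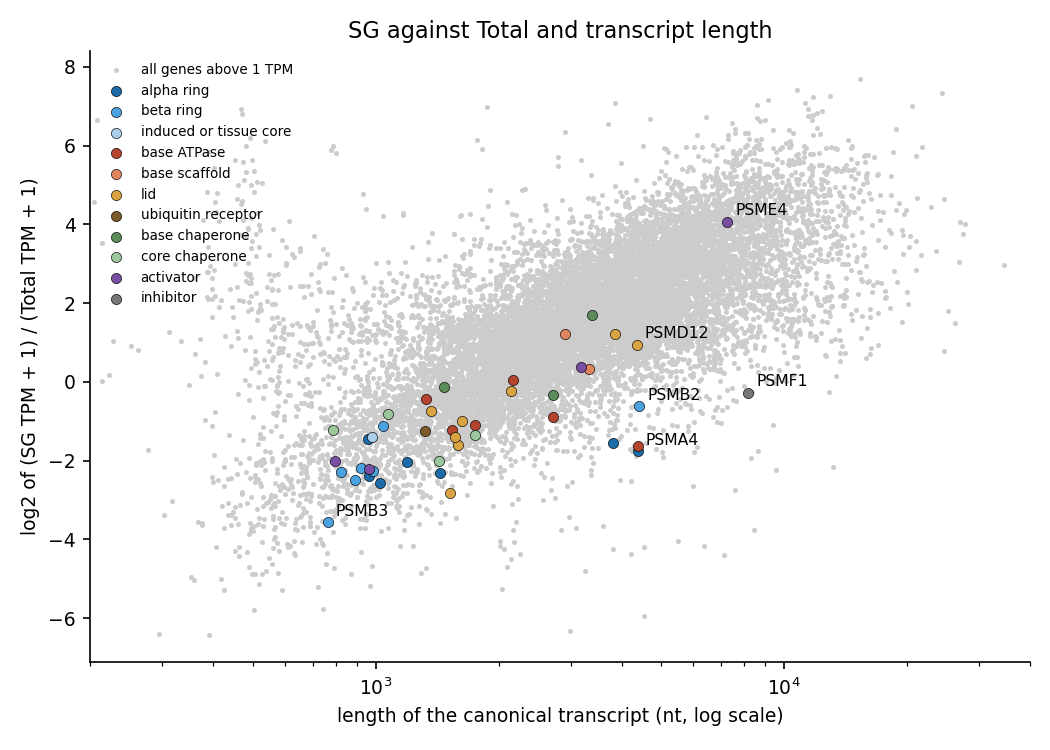
Log2 ratio of (SG TPM + 1) to (Total TPM + 1) against the length of the canonical transcript in nt (log axis), with all genes above 1 TPM in grey and the 44 members coloured by class. Genes under 200 nt are outside the plot. Most members lie in the lower part of the cloud, with PSMF1 (8154 nt) and PSMA4 (4378 nt) below most genes of nearby length.

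The knockdown libraries asked whether proteasome mRNA levels depended on G3BP1 or G3BP2. In siG3BP1 1 of 44 members was called lower and none higher, where 1.98% of 12269 genes were lower and 1.12% higher. In siG3BP2 it was again 1 lower and none higher, where the shares of 12218 genes were 2.89% and 1.23%. In each knockdown 42 of the 44 were within 0.5 of siCtrl on the log2 scale. The median log2 ratio of the members was -0.07 in siG3BP1, beside -0.08 for all genes, and 0.06 in siG3BP2, beside -0.12. Both comparisons share the siCtrl library.

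The member that was low in siG3BP1 was PSMD4, the ubiquitin receptor (GRCh38 chr1:151254709-151267479, plus strand). It was at 301 TPM in siCtrl, 90.8 in siG3BP1, 297 in siG3BP2, 304 in Total and 127 in SG. The siG3BP1 library stood apart from the others that were not SG, with a log2 ratio of -1.72 to siCtrl, at percentile 0.383 of all genes. In siG3BP2 the low member was another, PSMB3 (chr17:38752741-38764225, plus strand), at 119 TPM in siCtrl, 125.7 in siG3BP1, 40.1 in siG3BP2 and 126.7 in Total, with a log2 ratio of -1.55, at percentile 0.917. Set directly against each other, siG3BP2 was 1.70 higher than siG3BP1 on the log2 scale for PSMD4 and 1.63 lower for PSMB3, the only members called, where 1.4% of 12168 genes were higher and 1.94% lower. No other gene of the tables overlaps PSMD4 or PSMB3. PSMB3 had 0 reads in both rRNA-depleted libraries and a number of 0 in all 8 eCLIP libraries. How reads at its locus were aligned was not tested. With 1 siRNA and 1 library for each target, an effect of the siRNA sequence and an effect of the target cannot be told apart.

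The next largest differences were in the activator pair. PSME1 was at 70.4 TPM in siCtrl, 44.4 in siG3BP1 and 44.9 in siG3BP2, with log2 ratios of -0.65 and -0.64. PSME2, its partner, was at 73.3, 84.3 and 103.6 TPM, with log2 ratios of 0.20 and 0.49. None of these passed the threshold. PSME2 overlaps RNF31 on the other strand, which was at 25.3, 17.0 and 15.7 TPM, and PSME1 overlaps EMC9 on the other strand, which was at 26.4, 21.2 and 23.5 TPM, and whether the counting used strand is not given in the sources used here. PSME3 was at 96.9, 78.9 and 85.2 TPM and PSME4 at 11.7, 10.2 and 10.7 TPM. Of the ATPases PSMC4 was at 153, 116.0 and 135.6 TPM and PSMC2 at 36.5, 41.3 and 47.1 TPM. PSMC2 shares its strand with PMPCB, and with both summed its log2 ratios were 0.02 and 0.13.

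**Figure D3:**
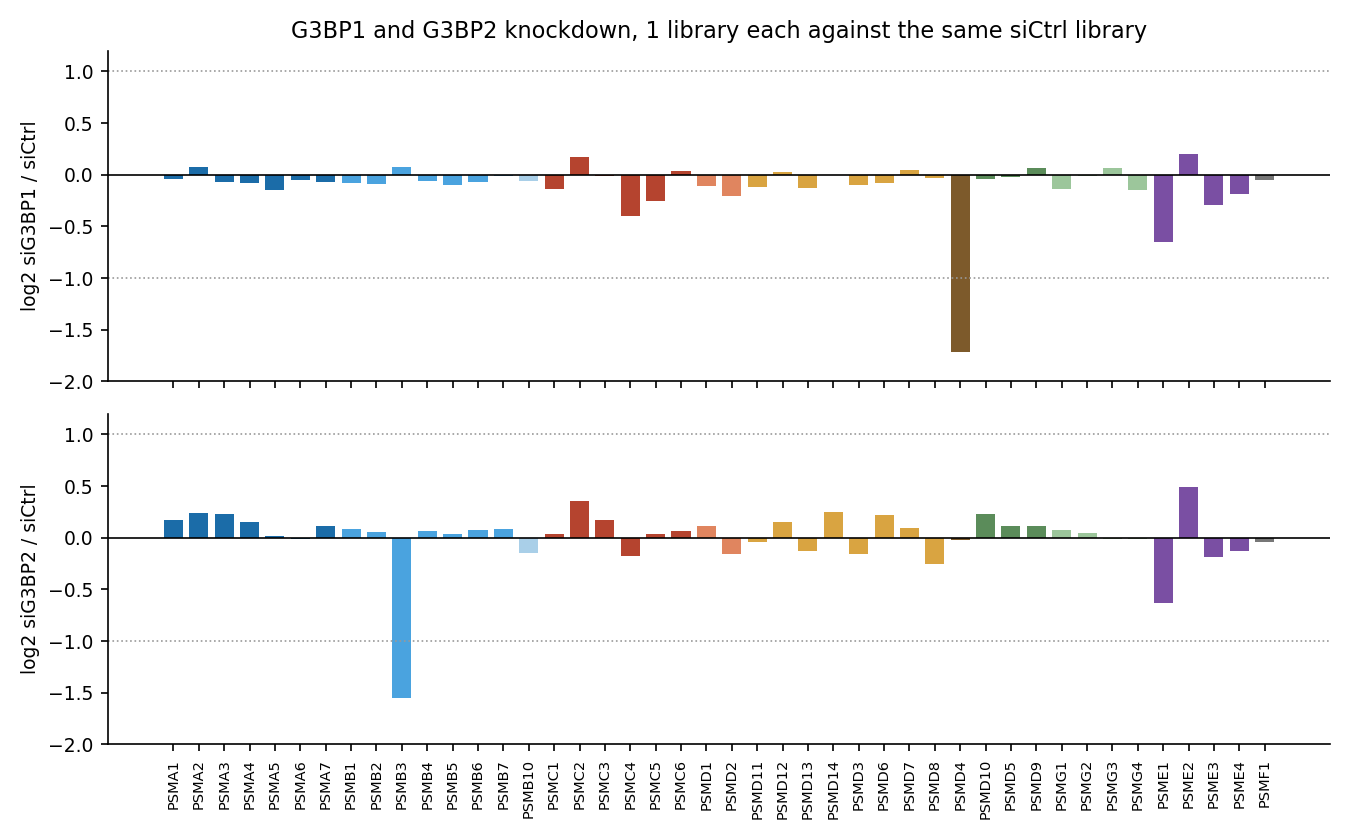
Log2 ratio of (TPM + 1) to siCtrl for the 44 expressed members in siG3BP1 (upper) and siG3BP2 (lower), 1 library each against the same siCtrl library, coloured by subunit class. The bars of PSMD4 (-1.72, upper) and PSMB3 (-1.55, lower) pass the dotted thresholds and no others do.

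Total, the lysate under arsenite, was set beside siCtrl, for which the methods describe transfection and no arsenite, although its label gives arsenite. As the lysate was also cleared by centrifugation, these effects cannot be told apart. None of the 44 members was called, where 19.6% of 12162 genes were lower and 1.28% higher. The median log2 ratio was 0.08 for the members and -0.41 for all genes, and it was 0.14 for the core subunits. PSMD14, the deubiquitinase of the lid, had the highest ratio, at 44.8 TPM in siCtrl and 67.8 in Total, followed by PSMC2 at 36.5 and 51.8 TPM and PSMB7 at 215 and 294 TPM. PSME4 had the lowest, at 11.7 and 6.17 TPM (log2 -0.83), before PSMG4 at 37.9 and 26.8 TPM and PSMD11 at 33.0 and 25.1 TPM. Total was also the reference for SG, so that its values enter both comparisons.

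The rRNA-depleted libraries compared untreated and AS cells directly, per transcript. Their deposited values behaved as RPKM, reads scaled to transcript length and library size, and the product of value and transcript length gave whole reads, so that exact Poisson intervals (95%, counting error only) can be given. A read was counted for every transcript that it overlapped, and isoforms of a gene are therefore not independent. Of 407 member transcripts above 1 RPKM in either library 6 were higher and 1 lower under AS, where 1.51% of 100705 transcripts were higher and 0.47% lower. The median log2 ratio was 0.18 for the members' transcripts and 0.22 for all, and the AS library is read relative to that shift.

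PSMC4, an ATPase of the base, held 4 of the 6 higher transcripts. Its canonical transcript, PSMC4-201, had 35 reads (24.4 to 48.7) in untreated cells and 241 (211.5 to 273.4) under AS, or 1.501 and 12.2 RPKM. The log2 ratio of 2.40 was exceeded by 52 of the 100705 transcripts. The other transcripts called, PSMC4-202, PSMC4-203 and PSMC4-206, had 28, 35 and 36 reads untreated and 237, 240 and 247 under AS, but they share most of their bases with PSMC4-201 and are not independent of it. PSMC4-204 and PSMC4-205 did not share the difference, with 21 and 2 reads untreated and 13 and 0 under AS. They end at chr19:39980061 and chr19:39980178, and the 4 higher ones share 454 exonic bases that those lack, all but 12 of which lie between chr19:39980286 and chr19:39981408, near the 3′ end of the gene. The excess of reads was thus seen in transcripts with these bases and not in those without them.

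The poly(A) libraries did not show such a difference for PSMC4, which was at 153 TPM in siCtrl and 144 in Total. In untreated cells the ratio of its RPKM to its siCtrl TPM was 0.0098, where the median of 6744 genes above 10 TPM was 0.175 and 3.22% of these genes were under 0.02. Among 646 genes between 100 and 200 TPM the median was 0.131, and 2.94% were under 0.02. Under AS the ratio to Total was 0.085. The PSMC4 value in the untreated rRNA-depleted library was thus low beside most genes of a poly(A) level near its own, and the reason was not tested.

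The canonical transcripts of the other members had log2 ratios between -0.30 and 0.70. Of the 42 above 1 RPKM, 13 had Poisson intervals that did not overlap between the libraries once scaled to RPKM, where 39.9% of 10354 canonical transcripts did not. For reads as counted, without the RPKM scaling, it was 4 (PSMC4, PSMC6, PSMD12 and PSME4), where the share of all was 18.5%. Reads summed over transcripts, where a read can count repeatedly, were nearly equal, at 23301040 untreated and 23353992 under AS. The RPKM denominators were 13291958 and 11281587, so that the counts of 13 and 4 differ through these alone. Which scale is the better one was not tested. PSMC6 had the next highest ratio, with 93 reads (75.1 to 113.9) untreated and 143 (120.5 to 168.5) under AS. PSME4 had 1136 and 1305 reads and PSMD12 658 and 783. PSME1 had 51 and 33 reads, PSME2 30 and 46, PSME3 1085 and 1027, and the core chaperones PSMG1, PSMG2, PSMG3 and PSMG4 117, 139, 136 and 38 untreated and 132, 146, 140 and 46 under AS. Besides PSMC4, the calls rested on few reads: PSME2-212 had 20 reads (12.2 to 30.9) and 42 (30.3 to 56.8), PSMC5-214 had 2 and 8, and PSMD1-211, the lower one, had 14 and 2.

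Several members were almost absent from the rRNA-depleted libraries although their poly(A) level was high. PSMB3 had 0 reads in both libraries, where 3 reads would have been 0.30 RPKM untreated and 0.35 under AS, although it was at 119 TPM in siCtrl. Of the 6744 genes above 10 TPM 70 had no read in either library. PSMB10 had 9 and 9 reads at 38.3 TPM in siCtrl, and PSME1 and PSME2 had the reads given above at 70.4 and 73.3 TPM. For PSMA8, PSMB8 and PSMB9 both libraries held 0 reads, and PSMB11 had 0 and 3. Of the 14 genes within 500 kb of PSMB8 or PSMB9 that were above 1 TPM, 11 also had 0 reads in both libraries. The 0 reads of PSMB8 and PSMB9 therefore cannot be read as a lack of expression.

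**Figure D4:**
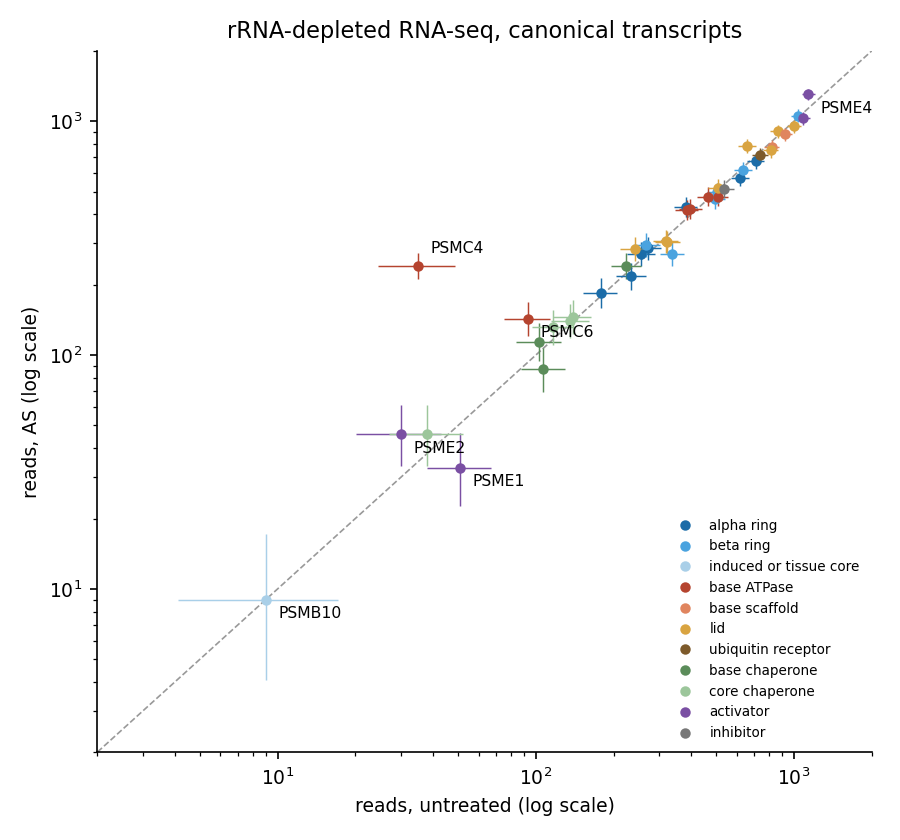
Whole reads on the canonical transcript of each member with reads in both rRNA-depleted libraries, untreated against AS (log axes), with exact 95% Poisson intervals as bars and equal reads as the dashed line. PSMC4 (35 and 241 reads) lies far above the line.

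The eCLIP values are log10(number + 1) with 2 decimals per gene and library, where the deposited numbers summed to between 4268803 and 26179319 a library. They were scaled to the same total before they were compared. Both duplicates were above 0 for 39 members with G3BP1 and 39 with G3BP2 untreated, and for 38 and 35 under AS. As shares these were 81.3% and 81.3% untreated and 79.2% and 72.9% under AS, where 89.2% and 91.9% and then 86.5% and 90.5% of all genes had both above 0. In all 8 libraries 31 of 48 members were above 0 (64.6%), where 82.7% of all genes were.

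AS and untreated were compared by limma, fitted over all genes for each protein. At an adjusted p under 0.05 (Benjamini-Hochberg) no member was called for either protein, where 0% of 18876 genes were called for G3BP1 and 0% of 19021 for G3BP2. At an unadjusted p under 0.05, 4 of 42 members tested differed for G3BP1 and 4 of 41 for G3BP2, where 2.54% and 3.34% of all genes did. These counts were not stable: with values as deposited they were 0 and 2, with the replicate block on deposited values 2 and 6, without AS replicate 1 they were 9 and 7, and without G3BP2 untreated replicate 1 that of G3BP2 was 9. PSMD12, of the lid, and PSMC1, an ATPase, were among these for both proteins. The 2 proteins are not independent repeats, as their libraries of the same treatment and replicate number deviated together (r 0.54 untreated, 0.48 under AS).

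PSMD12 had deposited numbers of 92 and 134 with G3BP1 untreated, 675 and 190 under AS, 61 and 125 with G3BP2 untreated, and 645 and 274 under AS. The AS duplicates were above the untreated ones for both proteins, and the ranges did not overlap. On the scaled log10 scale the difference was 0.62 ± 0.24 (SE) for G3BP1 and 0.75 ± 0.24 for G3BP2, with limma adjusted p of 0.996 and 0.995. For G3BP1 the difference was 0.27 without the first untreated library and 0.97 without the second, and for G3BP2 it was 0.40 and 1.10.

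PSMC1 had 33 and 18 with G3BP1 untreated, 177 and 22 under AS, 21 and 36 with G3BP2 untreated, and 157 and 111 under AS, which gave differences of 0.51 ± 0.18 and 0.74 ± 0.25 (limma adjusted p 0.996 and 0.995). For G3BP2 the difference was 0.44 without the first untreated library and 1.04 without the second. PSMD8, which was the lid gene lowest in SG, went the other way, from 233 and 90 to 61 and 3 with G3BP1 and from 281 and 114 to 75 and 0 with G3BP2. Its difference was -0.90 ± 0.23 for G3BP1 (limma adjusted p 0.996). PSME2 had 0 and 0 with G3BP2 untreated and 28 and 28 under AS, but 14 and 0 with G3BP1 untreated and 0 and 0 under AS. It entered the G3BP2 fit only through its AS libraries, so that its place in that count is no support for a difference. With only genes above 0 in all libraries kept, 3 of 34 members were under the unadjusted threshold for G3BP2, and 607 of 17645 genes. PSMB1 with G3BP1 (47 and 8 untreated, 90 and 27 under AS) and PSMD7 with G3BP2 (20 and 13 untreated, 75 and 51 under AS) completed the members under the unadjusted threshold.

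The proteins were also compared with each other. In the interaction of protein and treatment no member passed an adjusted p under 0.05 in limma, nor did any gene (0% of 18884), and of the 41 members tested none was under an unadjusted 0.05, where 0.678% of genes were. Between G3BP2 and G3BP1 over both treatments no member was called, nor was any gene (0%), and 2 of 41 members were under the unadjusted threshold, where 1.67% of genes were. One was PSMC4, with 30 and 25 untreated and 10 and 8 under AS with G3BP1, and with 4 and 0 untreated and 15 and 0 under AS with G3BP2, a difference of -0.99 ± 0.29 on the scaled log10 scale (limma adjusted p 0.999). The other was PSMD9, with a difference of -0.14 ± 0.06.

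Values moved with the summed span of a gene's annotated transcripts, in which overlapping transcripts count repeatedly. PSMD1 had the largest number (8912 in 1 library), and its 37 annotated transcripts have the largest summed span of the members, 2990 kb. Across the 48 members the Pearson correlation of the log10 value with the log10 span was between 0.75 and 0.81 in the 8 libraries, and that with log2(siCtrl TPM + 1) between -0.16 and 0.08. The members share each library's depth, and the correlations are across genes.

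Per kb of summed span, scaled and averaged over the 8 libraries, the median was 1.30 for the members and 2.23 for 19892 genes, whose quartiles were 1.74 and 2.60. In all 42 of 48 members were under the median of all genes. The core subunits had a median of 0.98, the regulatory particle 1.41. PSMA8, at 0 TPM in the 5 poly(A) libraries and 0 reads in the rRNA-depleted ones, had a value of 2.22 (1.85 to 2.67 over the libraries), close to the median of all genes, from numbers of 185 to 1071. PSMB4, at 564 TPM the most abundant member, had 12 in 1 library and 0 in the other 7, or 0.078 per kb. The order of eCLIP values was thus not that of the mRNA levels. PSMB11 had the highest value, 2.76, from numbers of 0 to 10 on a span of 1.85 kb, and after it came PSMC2 with 2.66 and PSMD12 with 2.37.

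The lowest values were those of PSMB3, PSMB8 and PSMB9, at 0 in all 8 libraries, which was so for 2.36% of all genes. Next were PSME1, with 18 in 1 library and 0 in 7 (0.069 per kb), and PSMB4. PSMB8 and PSMB9 lie beside each other on chromosome 6, and 25 of the 37 genes of the table within 500 kb were also at 0 in all 8 libraries. Of the 17 neighbours of PSMB3 above 1 TPM 3 were at 0 in all 8 eCLIP libraries and 4 had 0 reads on the canonical transcript in both rRNA-depleted ones. How reads from these regions were aligned was not tested. PSME4, the member with the highest SG ratio, had 1.98 per kb (1.59 to 2.41).

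**Figure D5:**
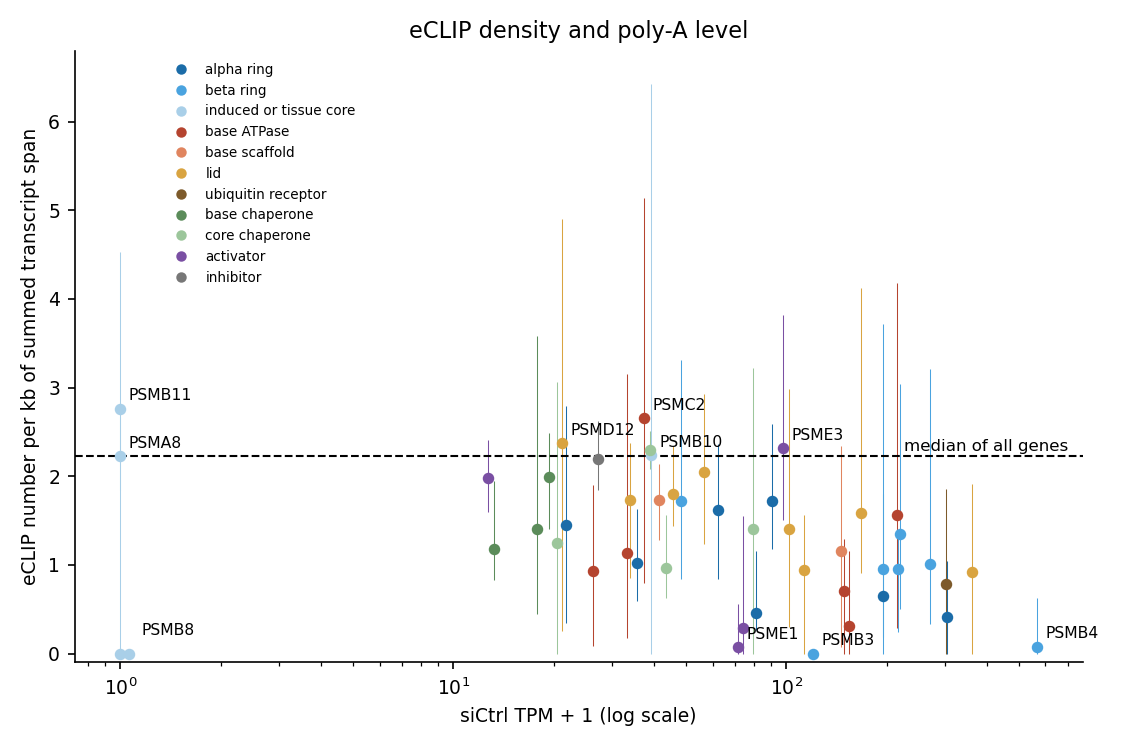
eCLIP number per kb of summed transcript span against siCtrl TPM + 1 (log axis) for the 48 members, coloured by class. Points are means over the 8 scaled libraries, bars run from the lowest to the highest library and the dashed line is the median of all genes (2.23); PSMA8 at 0 TPM lies on that line and PSMB4 at 564 TPM lies near 0.

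Of 25 other genes that act with the proteasome and are not named PSM, 12 (48%) were higher and 4 (16%) lower in SG than in Total, where 62.9% and 9.45% of all genes were, with a median log2 ratio of 0.81 against 1.51. Those lower were the core maturation factor POMP (100.7 TPM in Total and 9.66 in SG), the small regulatory subunit SEM1 (86.9 and 16.2), UFD1 (99.8 and 20.2) and TXNL1 (30.1 and 14.3). Those higher included the transcription factor NFE2L1 (56.6 and 459 TPM) and the protease that activates it, DDI2 (1.60 and 72.3), the shuttle factors UBQLN1, UBQLN2 and UBQLN4, the ligase UBE3C, MIDN, ECPAS, NPLOC4, USP14, NGLY1 and VCP. Those of NGLY1 and VCP, with log2 ratios of 1.35 and 1.17, were under the median of all genes. The log2 ratios of UBQLN1, USP14, NPLOC4 and ECPAS, at 1.80, 1.90, 2.26 and 2.48, were less than 1 above that median. Calls of this list after rescaling were not counted. No gene of this list was called in either knockdown, where 1.12% and 1.23% of all genes were higher in siG3BP1 and siG3BP2 and 1.98% and 2.89% lower. In Total against siCtrl 5 of the 25 (20%) were lower, where 19.6% of all genes were, and 1 was higher, where 1.28% were, the latter being ZFAND2A, a stress-induced proteasome-associated factor, at 18.99 and 48.9 TPM. ZFAND2A was also the one of the 24 with a canonical transcript in the rRNA-depleted table that was higher under AS, at 2.999 and 10.6 RPKM. Of 10354 canonical transcripts of all genes 0.956% were higher.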

How the data were processed

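Per the labels and the methods of the study, reads of the knockdown, Total and SG libraries were aligned with HISAT2 2.1.0 to hg38 and quantified with StringTie. The authors deposited these as TPM per protein-coding gene, without counts, so the depth of these libraries is unknown. The deposited rRNA-depleted values are headed TPM, but their sums are too high for TPM and they are whole multiples of 1 read per kb (100% and 99.999% within 0.01), which fits RPKM with denominators of 13291958 and 11281587 reads, and they were used as RPKM. The deposited eCLIP values are log10 of (a number + 1). Their columns are headed as peaks, and the methods describe peaks called by CLIPper and normalized to size-matched input, but how a number per gene was formed from them is not given in the sources used here.

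Names, lengths and spans were taken from GENCODE release 44 by gene ID (19892 of 19924 matched) and by versioned transcript ID (88.5% matched). Ratios used a pseudocount of 1, thresholds of 2 and 0.5 and a minimum of 1 TPM or RPKM. A ratio on this scale understates the change of low genes. eCLIP values were scaled to the mean total of 16038713 and tested with limma 3.58.1 (R 4.3.3) with a trend, keeping genes with a value above 0 in 50% or more of a fit's libraries, with Benjamini-Hochberg adjustment. Ratio calls and fits were tested on simulated data. Libraries with the same replicate number deviated together (r between 0.11 and 0.54 over 6 pairs of groups, 16474 genes). Between the 2 proteins r was 0.54 untreated and 0.48 under AS, whereas across treatments it was 0.11 to 0.18. A replicate block was fitted as well, which called no member. The block was 1 term for both treatments, so that it does not model a pairing within each treatment.

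Members named with values were those called, the 3 highest and 3 lowest by ratio above 10 TPM and by eCLIP value per kb, the catalytic pairs, activators, PSMG genes and unexpressed members. The CCAAT and ETS motifs, the sequence windows, the PSMC4 exons and the genes named for length were picked with their values in view. The members and lists were chosen with earlier results of these data known. Motif windows in untranslated regions are not reported here.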

Additional observations from a re-analysis of the deposited data

How the results depend on the processing

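Rescaling SG to a median ratio of 1 left 1 member higher in SG against Total, with PSMD2 at -0.2548 and PSMD11 at -0.223. Fold thresholds of 1.5 and 2/3 gave 2 members lower in siG3BP1, 2 lower in siG3BP2, and 1 higher and 1 lower in Total. For the rRNA-depleted transcripts, members higher and lower were 13 and 5 with a pseudocount of 0.1, 32 and 6 with thresholds of 1.5 and 2/3, 2 and 0 with protein-coding transcripts only, and 1 and 0 with transcripts summed by gene. The lower count there was 0 with a minimum of 5 and 2 after rescaling. For these ratio counts the shares of all genes or transcripts under the same setting were not counted. They cannot be read as more or fewer than the background. The members' median eCLIP value per kb over that of all genes was 0.582 and became 0.769 by gene length from first to last base, 0.696 by the longest transcript and 0.658 with the second duplicates alone. The other 158 values stayed within 1.5 times for counts, or within the SD over the libraries for the eCLIP value per kb. Each cause was not tested, apart from fewer transcripts tested. Under the replicate block, with scaled or deposited values, 0 members were called in each eCLIP comparison, and leaving out each library in turn likewise gave 0 to 0. Over all genes, 29 were called in the interaction without G3BP1 AS replicate 1, 2 for G3BP1 without untreated replicate 2, and 2 for G3BP2 with values as deposited. Summing overlapping genes was added after the data were seen. With 1 library a condition the ratios carry no error, and with duplicates only large eCLIP differences could pass.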
